A study of Rattus norvegicus with 10 samples.

Results

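Splenic M2 macrophages that carried membrane of injected human stem cells (EV+) were compared with M2 macrophages of the same treatment that did not (EV-), over all 9003 genes of the table and in the 3 pairs of libraries with the same replicate number. The 6 libraries, 3 EV+ and 3 EV-, were taken by their titles from the 10 libraries of the series. The rats were of the WKY /Ncrj strain, and the nephritis model used females of 7 to 12 weeks. The EV+ and EV- cells came from rats with glomerulonephritis (GN), which was induced with TF78, a mouse monoclonal antibody to the rat glomerular basement membrane, and treated with intravenous human adipose-derived mesenchymal stem cells (ASCs). The ASCs had been stained with DiD, a dye that lodges in cell membranes, before injection. EV+ cells were sorted as DiD-positive and EV- cells as DiD-negative anti-inflammatory (M2) macrophages. Beside them stand 2 libraries of M2 macrophages from GN rats without ASCs (GN) and 2 from rats without nephritis (control). Their levels are given here without a comparison of their own. They also enter the fits of all 10 libraries, where they help to set the estimate of spread.

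Extracellular vesicles (EVs) are membrane-bound particles that cells shed and that carry proteins, lipids and RNA to other cells. Macrophages of the spleen filter particles from the blood, take them up by phagocytosis and endocytosis, and digest them in lysosomes. M2 macrophages are the polarization state linked to interleukin 10 and tissue repair, in contrast to the M1 state, which is linked to interferon-γ, TNF and nitric oxide. Class II molecules of the major histocompatibility complex (MHC) show peptides from such digested material to CD4+ T cells. The comparison asks how macrophages that had taken up ASC membrane differed from neighbours that had not.

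The sort sets what the groups can show. DiD marks membrane that came from the ASCs and not vesicles as such, and both groups had been exposed to the treatment. Neither the labels nor the methods say whether cells of several rats were pooled or whether the EV+ and EV- libraries of a number came from the same rat. If they did not come from separate rats, the p-values below measure only the spread between these libraries.

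Values are read counts scaled to library size by the TMM method (CPM). Differences are on the log2(CPM + 1) scale, EV+ minus EV-, so a value of 1 is a doubling for a well expressed gene, and the change of low genes is understated. The 6 libraries held between 19270515 and 25955835 reads on the genes of the table, and 3 reads, taken as the floor of detection, were worth 0.117 to 0.153 CPM. For the 7185 genes with a mean of at least 5 CPM, the median standard error (SE) of a difference was 0.116 and the median 95% interval reached 0.25 to either side, so smaller differences were mostly not detectable. After adjustment for the number of genes, larger differences could go undetected too. Macrophage genes were high as a sum in all 6 libraries, but not every member was. The macrophage list summed to between 32843 and 35231 CPM in EV+ and between 32577 and 34349 CPM in EV- libraries (17 of 20 members measured, exact permutation test, two-sided p = 0.5). The 5 members not over 50 CPM in both control libraries made up 16.3 to 20.0 CPM in EV+ and 9.10 to 19.5 CPM in EV-. *Mertk*, *Maf*, *C1qa*, *C1qb*, *C1qc*, *Siglec1*, *Cd5l* and *Timd4* were either among those 5 or not in the table. The monocyte list, which shares *Lyz2* and *Cd14* with the macrophage list, summed to 31403 to 33557 CPM in EV+ and 31851 to 32712 CPM in EV-. Of its 13 measured members, 9 were over 50 CPM in both control libraries, *Plac8*, *Csf3r* and *Spn* among them. *Csf1r*, the receptor for macrophage colony-stimulating factor, was at 7567 ± 579 CPM in EV+ and 7151 ± 371 CPM in EV- (mean ± SD, n = 3 each). The M2 markers *Mrc1* and *Cd163*, both scavenger receptors, were near the floor, at no more than 0.817 and 1.27 CPM in any of the 6 libraries, so the M2 label rests on the sort.

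Both kinds of macrophages were very alike. Over the 7185 genes with a mean of at least 5 CPM, the median absolute difference within a pair was 0.124 in pair 1, 0.116 in pair 2 and 0.109 in pair 3. In pair 1, 11 of these genes were at least 2-fold higher and 28 at least 2-fold lower in EV+. In pair 2 these counts were 14 and 10, and in pair 3 they were 15 and 8. The root mean square distance between libraries was 0.218 to 0.278 for the same-numbered pairs, 0.230 to 0.305 for 2 libraries of the same group, and 0.251 to 0.329 for an EV+ and an EV- library of different numbers. These 3 ranges overlapped.

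At a false discovery rate (FDR) under 0.1, 2 of the 9003 genes rose in EV+ (0.0222%) and none fell by limma, against 188 higher (2.09%) and 223 lower (2.48%) at an unadjusted p under 0.05. When replicate number entered the 10-library fit as a block, 5 genes rose (0.0555%) and none fell, with 224 higher (2.49%) and 235 lower (2.61%) at an unadjusted p under 0.05. That block also put GN and control libraries together with EV libraries of the same number, although these came from differently treated rats. In the blocked fit of the 6 EV libraries alone, which has 2 residual degrees of freedom, 32 rose (0.355%) and 17 fell (0.189%), 49 in all (0.544%). The ranges of the groups did not touch in 383 genes with EV+ above (4.25%) and 419 genes with EV+ below (4.65%). EV+ was higher in all 3 pairs in 1234 genes (13.7%) and lower in all 3 in 1286 genes (14.3%). The plot of difference against level shows these calls. All 5 genes called with the block in 10 libraries, *Plvap* and *Pltp* among them, were also among the 49 of the 6 libraries. Of those 49, 23 had EV+ above and 13 had EV+ below without overlap, and in 13 the groups overlapped.

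**Figure D1:**
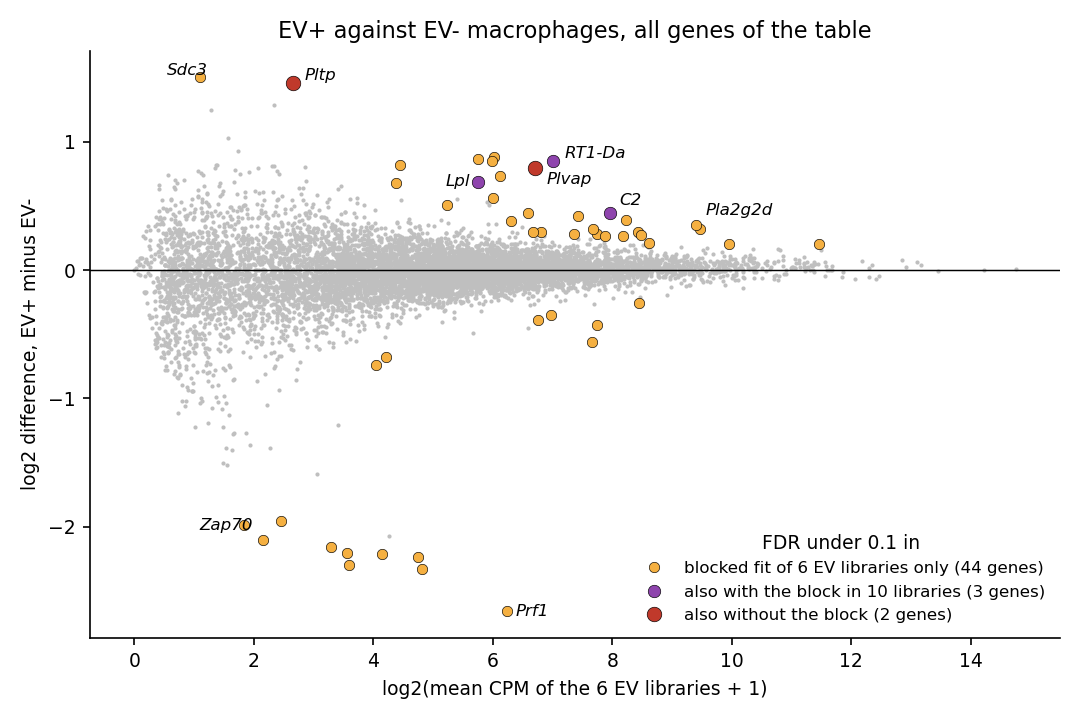
Each point is a gene, with log2 of its mean CPM over the 6 EV libraries plus 1 on the x axis and its log2 difference, EV+ minus EV-, on the y axis. Grey genes passed no threshold, and the colored ones had an FDR under 0.1 in the fits named in the key, with most rises between 0.2 and 0.9 and the deepest falls among cytotoxic lymphocyte genes such as *Prf1* (-2.66) and *Tbx21* (-1.96).

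The 2 genes called without the block encode a vascular membrane protein and a lipid carrier. *Plvap* encodes the protein that forms the diaphragms of endothelial fenestrae and caveolae. It had 147, 122 and 124 CPM in EV+ replicates 1, 2 and 3 and 85.5, 68.1 and 72.3 CPM in the EV- replicates. The groups did not overlap, and the pairs differed by 0.77, 0.84 and 0.77. Its log2 difference was 0.79 (SE 0.116, adjusted p = 0.0394 by limma, 0.00154 with the block in 10 libraries). GN libraries had 183 and 163 CPM and control libraries 108 and 82.0 CPM.

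*Pltp* encodes the phospholipid transfer protein of plasma, which moves phospholipids between lipoproteins and cells. It had 9.53, 8.88 and 6.25 CPM in EV+ and 1.94, 2.91 and 2.14 CPM in EV- libraries. The lowest EV+ library was above every EV- library, and the log2 difference was 1.46 (SE 0.211, adjusted p = 0.0394, 0.0463 with the block in 10 libraries). The pairs differed by 1.84, 1.34 and 1.21. GN libraries had 17.7 and 12 CPM and control libraries 4.31 and 3.46 CPM. Without EV+ replicate 1 the adjusted p was 0.204 for each gene. *Plvap* also lost the call without EV+ replicate 3, EV- replicate 2 or EV- replicate 3 (adjusted p = 0.185, 0.193 and 0.101), and *Pltp* without EV+ replicate 2 or EV- replicate 1 (adjusted p = 0.123 and 0.266). *Pltp* also lost it when the 6 EV libraries were fitted alone without the block (adjusted p = 0.105).

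Because *Plvap* is best known from endothelium, other endothelial genes are given beside it. Of 18 listed, 4 were in the table. *Pecam1*, which macrophages also express, had 181, 204 and 186 CPM in EV+ and 158, 194 and 178 CPM in EV- libraries, and the groups overlapped. *Tie1*, an endothelial receptor tyrosine kinase, had 15.3, 13.6 and 14.4 CPM in EV+ and 10.6, 12.5 and 10.6 CPM in EV- libraries (difference 0.34, adjusted p = 1), with no overlap. *Esam*, an endothelial adhesion molecule, reached no more than 0.866 CPM in any of the 6 libraries. The 4 genes summed to 325 to 343 CPM in EV+ and 254 to 276 CPM in EV- libraries, of which the members other than *Plvap* and *Pecam1* made up 13.7 to 15.3 CPM and 10.7 to 13.4 CPM. Endothelial cells' part in the *Plvap* result was not tested.

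With the block in 10 libraries, *Lpl*, *C2* and *RT1-Da* joined these genes. *Lpl* encodes lipoprotein lipase, which releases fatty acids from circulating lipoproteins. It had 66.5, 61.8 and 68.4 CPM in EV+ and 41.2, 41.7 and 38.0 CPM in EV- libraries. The EV- level was near that of control (40.6 and 36.7 CPM), whereas GN had 108 and 76.3 CPM. The log2 difference of *Lpl* was 0.69 (SE 0.117, adjusted p = 0.125, 0.073 with the block), and it was called without the block when the 6 EV libraries were fitted alone. *C2* encodes complement component 2, the protease that becomes part of the classical C3 convertase. It had 296, 237 and 326 CPM in EV+ and 223, 175 and 232 CPM in EV- libraries. Replicate 2 was the lowest of both groups, and the pairs of *C2* differed by a nearly constant 0.40, 0.44 and 0.49 (difference 0.44, SE 0.127, adjusted p = 0.783, 0.0463 with the block). *RT1-Da* is described with the class II genes.

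**Figure D2:**
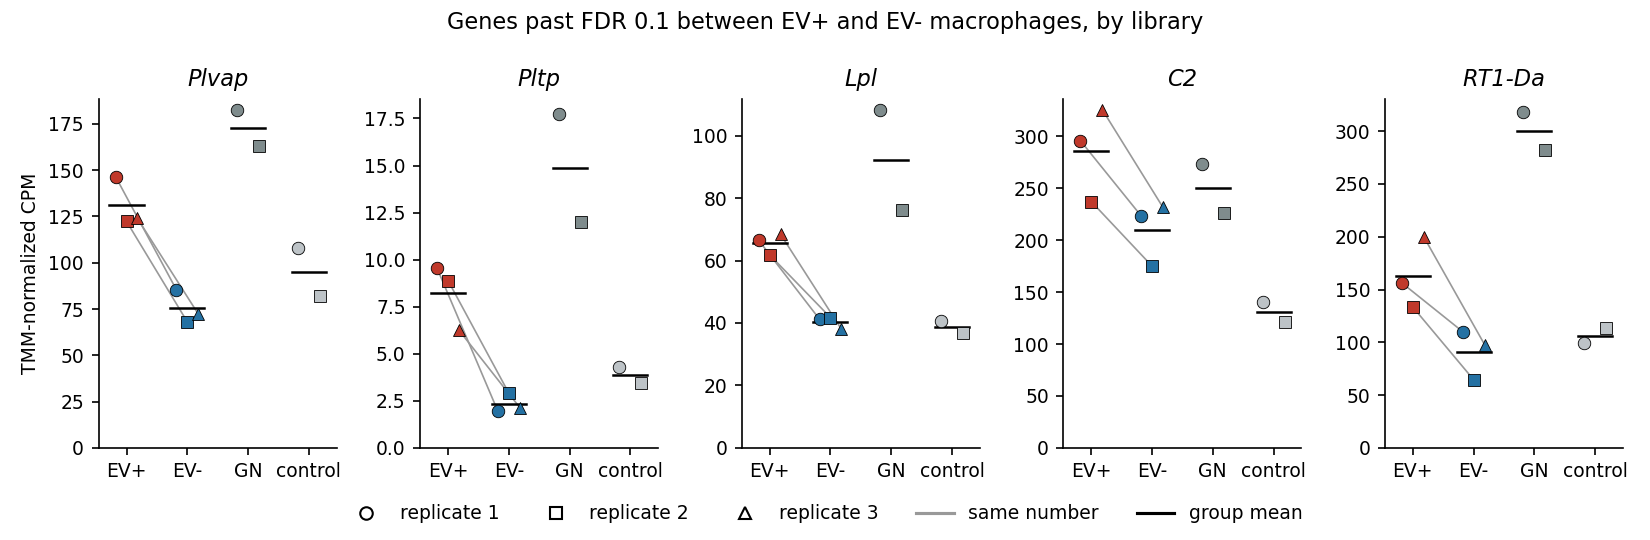
TMM-normalized CPM (y axes, from 0) of the 5 genes with an FDR under 0.1 in the fits of 10 libraries, by group (x axes), with 1 point per library, bars at group means and grey lines between EV+ and EV- libraries of the same number. In each gene every line falls from EV+ to EV-, and for *C2* and *RT1-Da* replicate 2 lies lowest in both groups.

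The classical MHC class II genes were higher in EV+ in every pair and passed the threshold together in the blocked fit of the 6 libraries. RT1 is the rat MHC, and *RT1-Da*, *RT1-Db1*, *RT1-Ba* and *RT1-Bb* encode the α and β chains of its 2 class II molecules, D and B. Their promoters are shown because these 4 genes differed by nearly the same amount. In each, the 120 bases before the RefSeq gene start on GRCr8 are given 5′ to 3′ on the gene's strand, with capitals marking 2 motifs of class II promoters, CTGATTGG (the core of the Y box, bound by NF-Y) and GCAACNG (the core of the X box, bound by the RFX complex, which recruits the coactivator CIITA).
RT1-Da (chr20:4515295-4515414, plus strand): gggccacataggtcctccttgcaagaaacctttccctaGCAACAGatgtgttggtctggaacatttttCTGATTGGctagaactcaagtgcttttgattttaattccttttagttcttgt
RT1-Db1 (chr20:4560163-4560282, minus strand): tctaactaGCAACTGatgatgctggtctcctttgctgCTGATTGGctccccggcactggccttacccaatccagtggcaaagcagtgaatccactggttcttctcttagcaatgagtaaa
RT1-Ba (chr20:4576937-4577056, plus strand): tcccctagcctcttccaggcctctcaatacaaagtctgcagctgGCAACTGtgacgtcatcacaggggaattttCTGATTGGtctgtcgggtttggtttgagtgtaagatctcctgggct
RT1-Bb (chr20:4604119-4604238, minus strand): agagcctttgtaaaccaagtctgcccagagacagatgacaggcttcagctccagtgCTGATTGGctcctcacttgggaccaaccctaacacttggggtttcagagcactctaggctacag

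CTGATTGG lay in all 4, with its first base 52, 83, 46 and 64 bases before the start in the order shown. It was found on either strand in the 250 bases before the start of 3.19% of the 33469 promoters in the RefSeq table and of 4.96% of the 7292 that belong to genes of the deposited table. GCAACNG lay 82, 112 and 76 bases before the start of *RT1-Da*, *RT1-Db1* and *RT1-Ba*, and was found in 9.78% and 10.7% of these promoters. The 2 motifs do not overlap in these sequences. Other measured genes of class II presentation also had a motif in the 250 bases. CTGATTGG was found for *RT1-DOa* and *Rfx5*, which differed by -0.19 and 0.17. GCAACNG was found for *Cd80*, *Ctss*, *RT1-DOb*, *Rfx5* and *Rfxap*, which differed by -0.04, 0.09, 0.37, 0.17 and -0.11. The matches describe the sequences and were not tested for binding.

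*RT1-Da* had 156, 133 and 200 CPM in EV+ and 110, 64.6 and 97.9 CPM in EV- libraries. *RT1-Db1* had 71.5, 61.4 and 109 CPM in EV+ and 54.8, 29.4 and 48.9 CPM in EV- libraries. In neither gene did the groups overlap, and replicate 2 was the lowest library of both groups. *RT1-Ba* had 61.0, 50.3 and 94.9 CPM in EV+ and 45.0, 24.5 and 41.8 CPM in EV- libraries. *RT1-Bb* had 70.6, 66.1 and 113 CPM in EV+ and 56.1, 28.8 and 50.4 CPM in EV- libraries. The 4 differences were alike, at 0.85 for *RT1-Da* and *RT1-Db1*, 0.87 for *RT1-Ba* and 0.88 for *RT1-Bb*. They were smallest in pair 1, at 0.33 to 0.50, and larger in pair 2, at 1.01 to 1.17, and pair 3, at 1.02 to 1.16. Without the block none passed the threshold by limma (adjusted p = 0.247, 0.521, 0.574 and 0.521, in the order of *RT1-Da*, *RT1-Db1*, *RT1-Ba* and *RT1-Bb*), whereas *RT1-Da* did by DESeq2 on the reads (adjusted p = 0.0886). With the block in 10 libraries *RT1-Da* did (adjusted p = 0.073, against 0.118, 0.118 and 0.18 for the others), and in the blocked fit of the 6 libraries all 4 did (adjusted p = 0.00401, 0.0131, 0.0131 and 0.0178).

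The class II levels in EV+ lay between those of EV- and GN. GN libraries had 318 and 282 CPM of *RT1-Da*, and control libraries 98.9 and 114 CPM. For *RT1-Ba* they had 132 and 116 CPM in GN and 40.6 and 44.0 CPM in control.

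The genes that serve the class II molecules did not all follow. *Cd74*, the invariant chain that escorts class II molecules to endosomes, had 827, 629 and 906 CPM in EV+ and 701, 523 and 659 CPM in EV- libraries. The groups overlapped, but EV+ was higher in each pair, by 0.24, 0.27 and 0.46 (difference 0.32, adjusted p = 1, 0.0178 in the blocked fit of the 6 libraries). The unblocked difference of *Cd74* was 0.21 without EV+ replicate 3 and 0.19 without EV- replicate 2. *Ciita*, the coactivator of class II transcription, had 3.28, 6.06 and 8.70 CPM in EV+ and 4.13, 0.561 and 1.52 CPM in EV- libraries. Pair 1 had the lower level in EV+ (-0.26) and pairs 2 and 3 the higher (2.18 and 1.95), so the groups of *Ciita* overlapped (difference 1.29, SE 0.378, adjusted p = 0.841). *RT1-DMa* and *RT1-DMb*, which encode the peptide-exchange molecule of endosomes, differed by -0.09 and -0.05 (95% intervals -0.47 to 0.30 and -0.38 to 0.29). *Rfx5*, a subunit of the RFX complex, differed by 0.17 and the costimulatory gene *Cd86* by 0.12, both with adjusted p = 1 by limma. Of the 19 measured genes of the class II presentation list (20 listed), 6 had EV+ above EV- without overlap (4.25% of all genes), none had EV+ below, and the median difference was 0.12, against -0.01 over all genes.

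**Figure D3:**
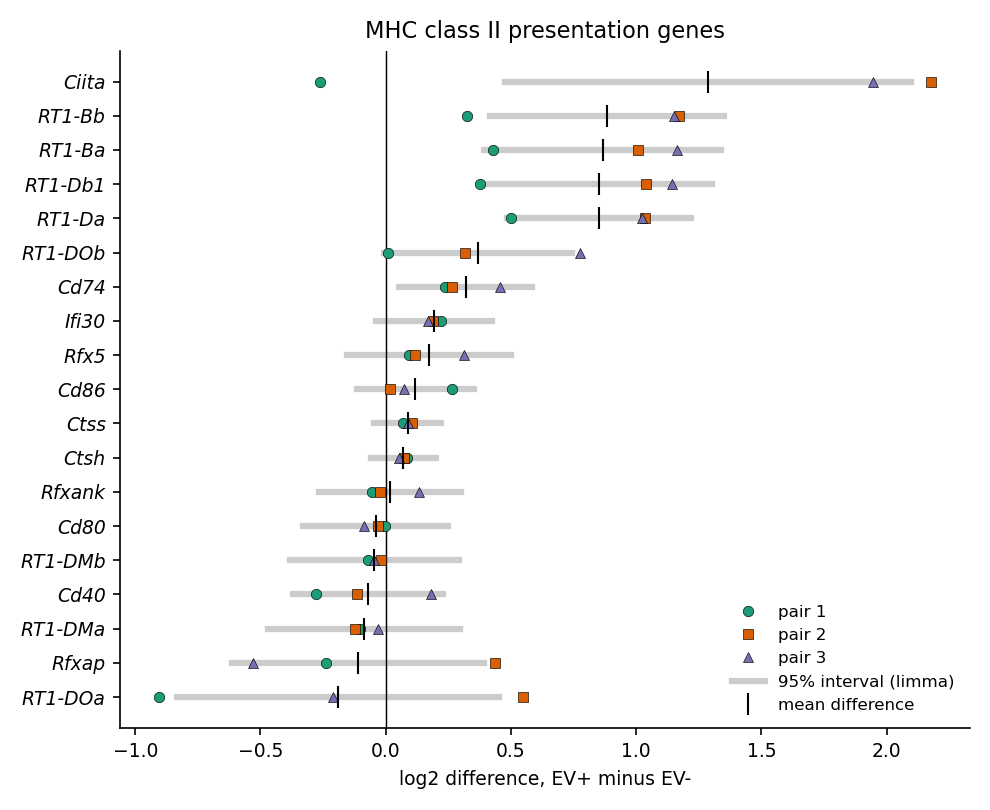
Log2 differences, EV+ minus EV- (x axis), of the 19 measured genes of the class II presentation list (y axis), with 1 symbol per same-numbered pair, a black bar at the mean difference and a grey bar for limma's 95% interval. The 4 classical class II genes lie at 0.85 to 0.88 with all 3 pairs above 0, whereas *Ciita* has pair 1 below 0 and most of the others lie near 0.

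B cells and dendritic cells also express class II genes, so their markers stand beside this result. The dendritic cell list (12 of 18 measured) summed to 229 to 243 CPM in EV+ and 206 to 243 CPM in EV- libraries. The B cell list (11 of 18 measured) summed to 496, 583 and 508 CPM in EV+ and 470, 557 and 491 CPM in EV- libraries, which overlapped. Of its members, 3 had over 50 CPM in both control libraries. The 8 other members summed to 48.3, 48.4 and 55.5 CPM in EV+ and 39.4, 34.4 and 36.0 CPM in EV- libraries, without overlap. The B cell gene *Ms4a1* (1.72, 1.60 and 1.52 CPM in EV+, 0.777, 0.153 and 0.739 CPM in EV-) did not overlap either, at levels far below those of the class II genes. *Cd72*, a B cell and macrophage receptor with inhibitory motifs, rose in the blocked fit of the 6 libraries (19.7, 27.6 and 26.5 CPM in EV+, 14.3, 16.5 and 14.0 CPM in EV-, difference 0.68, adjusted p = 0.247, 0.0659 in that fit). *Cd72* is among the 8 other members, so their sums include these values and are not independent of its rise. The part of other antigen-presenting cells in the class II result was not tested. Because the libraries are bulk RNA, a larger share of cells with a transcript and more of it per cell cannot be told apart.

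Enzymes of lipid metabolism and membrane proteins were among the further genes that rose in EV+ in the blocked fit of the 6 libraries. They were named after their values were seen, from its 49 calls. *Pla2g2d*, a secreted phospholipase A2 of lymphoid tissue, had 788, 755 and 731 CPM in EV+ and 563, 638 and 585 CPM in EV- libraries (difference 0.35, adjusted p = 0.177, 0.0131 in that fit). *Pla2g15*, the lysosomal phospholipase A2, had 373, 384 and 386 CPM in EV+ and 296, 323 and 311 CPM in EV- libraries (difference 0.30, adjusted p = 0.309 and 0.0178). Neither gene's groups overlapped, and each was higher in every pair. *Tbxas1*, thromboxane synthase, and *Alox5*, arachidonate 5-lipoxygenase, rose by 0.45 and 0.51 (adjusted p = 0.937 and 1 without the block, 0.0252 and 0.0721 in that fit), with 116, 94.8 and 119 CPM of *Tbxas1* in EV+ and 84.9, 62.4 and 96.3 CPM in EV- libraries, which overlapped, and 43.0, 36.9 and 48.8 CPM of *Alox5* in EV+ and 32.8, 22.2 and 36.1 CPM in EV- libraries. Without EV- replicate 2 the unblocked differences were 0.27 for *Tbxas1* and 0.30 for *Alox5*. Of the cholesterol synthesis and efflux list (32 of 33 measured), 3 genes had EV+ above without overlap (4.25% of all genes), *Lpl* among them, none had EV+ below, and the median difference was 0.02. *Nr1h3*, the liver X receptor that switches on cholesterol export genes, had 67.0, 70.5 and 62.2 CPM in EV+ and 55.2, 59.8 and 47.8 CPM in EV- libraries (difference 0.29, adjusted p = 0.934, 0.26 in the blocked fit of the 6 libraries).

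Among the membrane proteins, *Cd83*, which stabilizes class II molecules and CD86 on the cell surface, had 67.8, 80.3 and 78.9 CPM in EV+ and 49.5, 51.1 and 51.9 CPM in EV- libraries. All EV+ libraries lay above all EV- libraries, with a difference of 0.56 (adjusted p = 0.247, 0.0131 in the blocked fit of the 6 libraries). GN libraries had 116 and 113 CPM of *Cd83* and control libraries 162 and 112 CPM. *Tmem176b* and *Tmem176a*, neighbouring genes for ion channels of intracellular vesicles, were higher by 0.39 and 0.32 (adjusted p = 0.177 and 0.733, 0.00909 and 0.0252 in that fit). *Tmem176b* had 351, 311 and 356 CPM in EV+ and 254, 253 and 267 CPM in EV- libraries. *Cd14*, the lipopolysaccharide co-receptor, had 178, 197 and 211 CPM in EV+ and 143, 131 and 164 CPM in EV- libraries, again with no overlap (difference 0.42, adjusted p = 0.934, 0.0153 in that fit). *Gpnmb*, a glycoprotein of lysosome-rich macrophages, had 22.5, 31.5 and 26.7 CPM in EV+ and 17.2, 14.5 and 12.8 CPM in EV- libraries (difference 0.82, adjusted p = 0.572, 0.0529 in that fit).

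*Sdc3* encodes syndecan 3, a heparan sulfate proteoglycan of the cell surface. It had 3.56, 0.842 and 2.23 CPM in EV+ libraries, 0.194 CPM in EV- replicate 1 and 0 in EV- replicates 2 and 3. It was the lowest expressed of these genes and had the largest positive difference of the whole table by limma (1.50, adjusted p = 0.247, 0.0659 in the blocked fit of the 6 libraries). GN libraries had 2.13 and 1.73 CPM of *Sdc3*. The other genes of the ESCRT, tetraspanin and syndecan list, which build and sort vesicles, did not pass the threshold in these 3 fits. Of its 18 measured members (23 listed), 3 had EV+ above without overlap (4.25% of all genes), *Sdc3* among them, none had EV+ below, and the median difference was 0.04. *Cd63*, a tetraspanin used as a vesicle marker, had 3.01, 2.86 and 4.10 CPM in EV+ and 2.28, 1.94 and 2.02 CPM in EV- libraries, whereas *Cd81*, another, had 333, 296 and 335 CPM in EV+ and 280, 283 and 305 CPM in EV- libraries, which overlapped (adjusted p = 1 for both by limma).

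The lowest values in EV+ relative to EV- belonged to genes of cytotoxic lymphocytes, and EV- replicate 1 set their size. *Prf1*, perforin, had 18.4, 10.5 and 7.0 CPM in EV+ and 335, 51.4 and 24.5 CPM in EV- libraries. The groups did not overlap, but EV- replicate 1 was far above the other EV- libraries, and the pairs differed by -4.11, -2.19 and -1.67. The difference of *Prf1* was -2.66 (SE 0.652, adjusted p = 0.521, 0.00667 in the blocked fit of the 6 libraries). *Nkg7*, a protein of cytotoxic granules, had 5.08, 1.81 and 2.32 CPM in EV+ and 75.2, 10.1 and 5.68 CPM in EV- libraries. *Zap70*, the kinase of the T cell receptor, had 0.664, 0.0842 and 0.0446 CPM in EV+ and 10.2, 2.09 and 2.41 CPM in EV- libraries, and *Tbx21*, the transcription factor T-bet, 1.33, 0.589 and 0.312 CPM in EV+ and 18.8, 3.87 and 1.95 CPM in EV- libraries. The *Zap70* values of EV+ replicates 2 and 3 lay below the floor of 3 reads (0.126 and 0.134 CPM). In all 4 of these genes EV- replicate 1 was the highest library. *Nkg7*, *Zap70* and *Tbx21* fell in the blocked fit of the 6 libraries (adjusted p = 0.0252, 0.0131 and 0.0286, against 0.757, 0.247 and 0.633 by limma without the block). Without EV- replicate 1 the unblocked differences were -1.59 for *Prf1*, -1.17 for *Nkg7* and -1.16 for *Tbx21*, against -2.66, -2.21 and -1.96 with it.

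Over the list of natural killer (NK) and T cell genes, 25 of 36 were in the table. The median difference was -1.22, against -0.01 over all genes, 24 of the 25 were lower in EV+, 12 had EV+ below without overlap (4.65% of all genes), and 8 fell in the blocked fit of the 6 libraries (0.189%). None passed the threshold with the block in 10 libraries. The medians of the pairs were -2.48, -0.98 and -0.25, and 21, 12 and 5 members were at least 2-fold lower in EV+ in pairs 1, 2 and 3. Without EV- replicate 1 the median was -0.59, 20 members were lower and 12 did not overlap, against 8.85% of all genes then. *Cd8a* and *Klrk1* were exceptions, with 254 to 330 CPM and 86.5 to 146 CPM in EV+ and 261 to 333 CPM and 83.7 to 136 CPM in EV- libraries. They were also the 2 members with over 50 CPM in both control libraries. With these 2 genes, the list summed to 516, 372 and 477 CPM in EV+ and 1365, 480 and 501 CPM in EV- libraries. These sums overlapped (two-sided p = 0.4 by an exact permutation test). The 23 other members summed to 56.6, 32.0 and 35.4 CPM in EV+ and 895, 135 and 72.6 CPM in EV- libraries (two-sided p = 0.1 by an exact permutation test, which cannot go lower with 3 libraries a group). GN libraries had 34.9 and 53.4 CPM and control libraries 35.9 and 46.5 CPM, so it was the EV- libraries that stood above the rest. The part of lymphocytes among the sorted cells in this result was not tested.

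**Figure D4:**
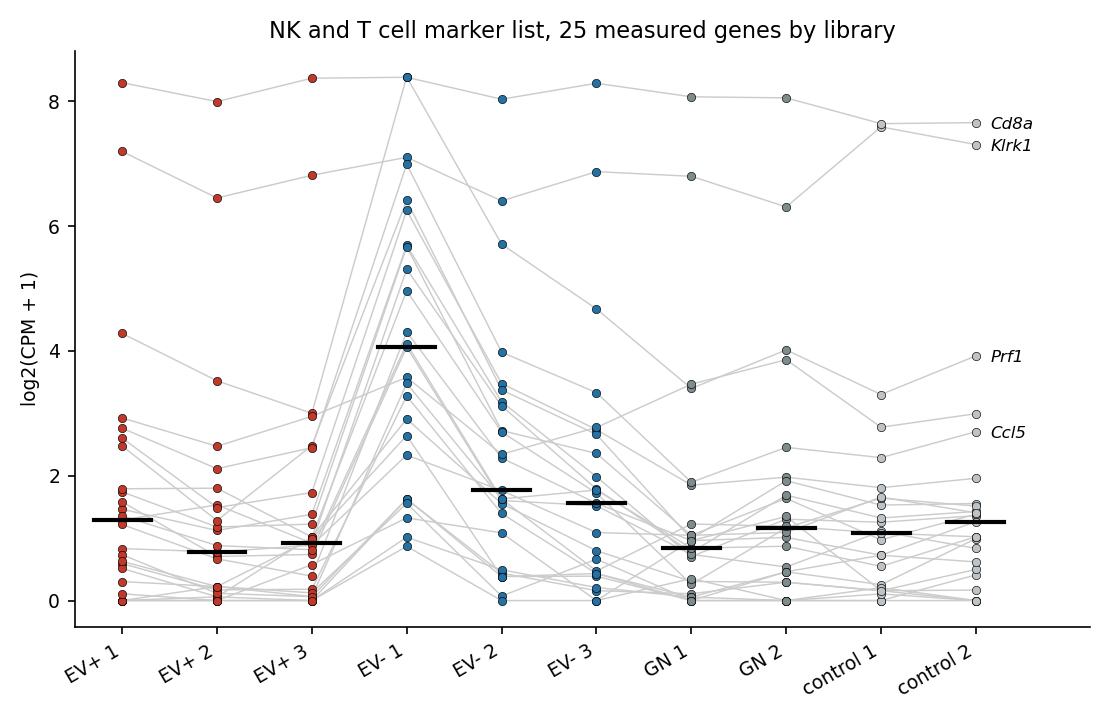
Level as log2 of CPM plus 1 (y axis) of the 25 measured NK and T cell genes in each of the 10 libraries (x axis), with 1 point per gene and library and grey lines that join the points of a gene. The black bar, the median of the 25 genes, lies highest in EV- replicate 1, and in EV- replicates 2 and 3 it lies above those of all EV+, GN and control libraries, whereas *Cd8a* and *Klrk1* lie high in every library.

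Cell cycle genes leaned the same way, most in pair 1, with pair medians of -0.41, -0.08 and -0.20. Of 30 measured members (32 listed), 24 were lower in EV+, 8 had EV+ below without overlap (4.65% of all genes) and 1 had EV+ above, and the median difference was -0.34. *Stmn1*, stathmin, which takes microtubules apart for mitosis, had 3.79, 4.97 and 6.42 CPM in EV+ and 24.1, 9.43 and 8.91 CPM in EV- libraries (difference -1.20, adjusted p = 0.572 by limma and 0.0175 by DESeq2). *Mcm5*, a subunit of the replication helicase, had 8.05, 8.21 and 8.16 CPM in EV+ and 12, 9.99 and 10.2 CPM in EV- libraries (difference -0.35, adjusted p = 1). Without EV- replicate 1 the median of the list was -0.16 and 22 members were lower, with 10 members below and 4 above without overlap (8.85% and 8.19% of all genes then). *Rrm1*, the large subunit of ribonucleotide reductase, went the other way, with 388, 385 and 394 CPM in EV+ and 311, 338 and 317 CPM in EV- libraries (difference 0.27, adjusted p = 0.309, 0.0419 in the blocked fit of the 6 libraries).

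Of the stress and early response genes, *Jun* and *Hspa1a* were highest in replicate 1 of both groups. *Jun*, a subunit of the AP-1 transcription factor, had 319, 120 and 92.1 CPM in EV+ and 474, 151 and 119 CPM in EV- libraries, and *Hspa1a*, a heat shock protein 70, had 285, 98.8 and 73.9 CPM in EV+ and 525, 115 and 112 CPM in EV- libraries. The groups overlapped, and EV+ was lower in every pair. In the blocked fit of the 6 libraries *Jun* fell by 0.42 and *Hspa1a* by 0.56 on the log2 scale (adjusted p = 0.0131 and 0.0327, against 1 without the block). Without EV- replicate 1, which leaves EV+ replicate 1 with no partner, the unblocked differences were 0.18 and 0.17. Of the immediate early list 29 of 30 were measured, with 2 members below without overlap (4.65% of all genes), 2 that fell in the blocked fit of the 6 libraries (0.189%) and a median of -0.06. Of the heat shock list 22 of 23 were measured, with 1 below without overlap, 1 that fell in that fit, which is *Hspa1a*, and a median of -0.04. *Isyna1*, the enzyme that makes inositol phosphate from glucose phosphate, had no such pattern, with 13.8, 13.4 and 12.5 CPM in EV+ and 24.1, 19.8 and 21.5 CPM in EV- libraries (difference -0.68, adjusted p = 0.247, 0.0653 in that fit).

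The genes of the M2 state did not separate the groups. *Il10*, the cytokine interleukin 10, had 12, 9.14 and 6.11 CPM in EV+ and 5.20, 4.89 and 6.54 CPM in EV- libraries. EV+ was higher in pairs 1 and 2 by 1.07 and 0.78 but not in pair 3 (-0.08), and the groups overlapped (difference 0.59, 95% interval 0.12 to 1.06, unadjusted p = 0.0171 and adjusted p = 0.994 by limma). GN libraries had 12.7 and 14.7 CPM of *Il10* and control libraries 25.2 and 17.0 CPM. *Tgfb1*, transforming growth factor β1, had 104 to 121 CPM in EV+ and 104 to 114 CPM in EV- libraries. Of the M2 and IL-10 list 26 of 30 were measured, 15 were higher in EV+, 1 was below without overlap (4.65% of all genes) and the median was 0.04. Of the list of M1 and inflammatory mediators 23 of 28 were measured, 16 were higher, 1 was below without overlap, 2 rose (0.355%) and 1 fell (0.189%) in the blocked fit of the 6 libraries, and the median was 0.12. *Nos2*, inducible nitric oxide synthase, rose in the blocked fit of the 6 libraries (123, 53.4 and 71.2 CPM in EV+, 88.6, 20.7 and 53.4 CPM in EV-, difference 0.73, adjusted p = 0.0659 in that fit and 1 without the block). Its difference without the block was 0.41 without EV+ replicate 1, 0.17 without EV- replicate 2 and 1.19 without EV- replicate 1. Prostaglandin E2 (PGE2) is a lipid mediator made by stem cells that acts through cAMP. Of the PGE2 and cAMP list 25 of 30 were measured, with 17 higher, 1 below without overlap and a median of 0.05.

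Interferon response genes were slightly higher in EV+ throughout. All 34 measured members (37 listed) had a mean difference above 0, against 47.3% of all genes, but the differences were small, between 0.004 and 0.36, with a median of 0.11. EV+ was higher in 27, 30 and 30 members in pairs 1, 2 and 3, and in all 3 pairs in 20 (13.7% of all genes). *Mx1*, an antiviral GTPase, had 544, 326 and 381 CPM in EV+ and 473, 287 and 344 CPM in EV- libraries, so the groups overlapped while every pair differed one way. Only 2 members had EV+ above without overlap (4.25% of all genes), and no member passed the threshold in the fits of 10 libraries. In the blocked fit of the 6 libraries 1 member rose (0.355% of all genes), *Lgals3bp*, a secreted glycoprotein that binds galectin 3 (difference 0.21, adjusted p = 0.0991 in that fit and 1 without the block). The unblocked difference of *Lgals3bp* was 0.11 without EV+ replicate 1 or EV- replicate 2 and 0.32 without EV+ replicate 2. The median of the list was 0.03 without EV+ replicate 1 or without EV- replicate 2. It was 0.23 without EV+ replicate 2 and 0.20 without EV- replicate 1. These last 2 settings left 9 and 10 members above without overlap, beside 914 and 737 of the 9003 genes. *Mx1* differed by -0.03 without EV+ replicate 1. Complement and Fc receptor genes had a median of 0.13 (23 of 26 measured, 3 above without overlap, beside 4.25% of all genes, and none below), and 2 members rose in the blocked fit of the 6 libraries (0.355%), *C2* among them. NF-kB and TNF targets had a median of 0.06 (19 of 23 measured, 4 above without overlap, beside 4.25% of all genes, and none below), and 1, *Cd83*, rose in the blocked fit of the 6 libraries (0.355%).

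The lists of genes for taking up and digesting particles had medians near 0. Of 17 measured genes for the uptake of vesicles and apoptotic cells (28 listed), 6 were higher in EV+, 1 was above without overlap (4.25% of all genes) and the median was -0.02. Of 27 measured lysosomal genes (30 listed), 6 had EV+ above without overlap (4.25% of all genes) and none below, with a median of 0.05 and none called in any of the 3 fits. *Ctsl*, the protease cathepsin L, had 62.1, 61.7 and 59.5 CPM in EV+ and 53.2, 56.5 and 49.6 CPM in EV- libraries (difference 0.20, adjusted p = 1). Secretion and exocytosis genes (26 of 30 measured) had a median of 0.02, and chemokine receptors, integrins and migration genes (23 of 29 measured) a median of 0.05.

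The direction of the ribosomal and respiratory groups changed between pairs and when EV+ replicate 2 was left out. Cytosolic ribosomal protein genes were higher in EV+ in 62 of 81 in pair 1, in 5 in pair 2 and in 32 in pair 3, with pair medians of 0.06, -0.22 and -0.02. Respiratory chain and ATP synthase genes were higher in 56, 11 and 30 of 72. The median over the 3 pairs was -0.05 for ribosomal genes, -0.04 for respiratory genes and -0.03 for 45 proteasome genes, and glycolysis genes (23 of 26 measured) had a median of 0.02. Without EV+ replicate 2 the ribosomal median was 0.08 and the respiratory median 0.09. The remaining marker lists summed to similar levels, with 20357 to 24437 CPM in EV+ and 21623 to 22538 CPM in EV- libraries for red pulp macrophage genes (16 of 17 measured). The 10 red pulp members not over 50 CPM in both control libraries summed to 113, 115 and 122 CPM in EV+. In EV- libraries they summed to 110, 105 and 107 CPM, without overlap. Medians were 0.05 for red pulp, 0.03 for monocyte (13 of 16 measured) and 0.06 for neutrophil genes (10 of 16 measured). Of erythroid, platelet and stromal markers only 3 of 17, 1 of 13 and 7 of 22 were in the table, with medians of -0.15, 0.11 and -0.09.

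**Figure D5:**
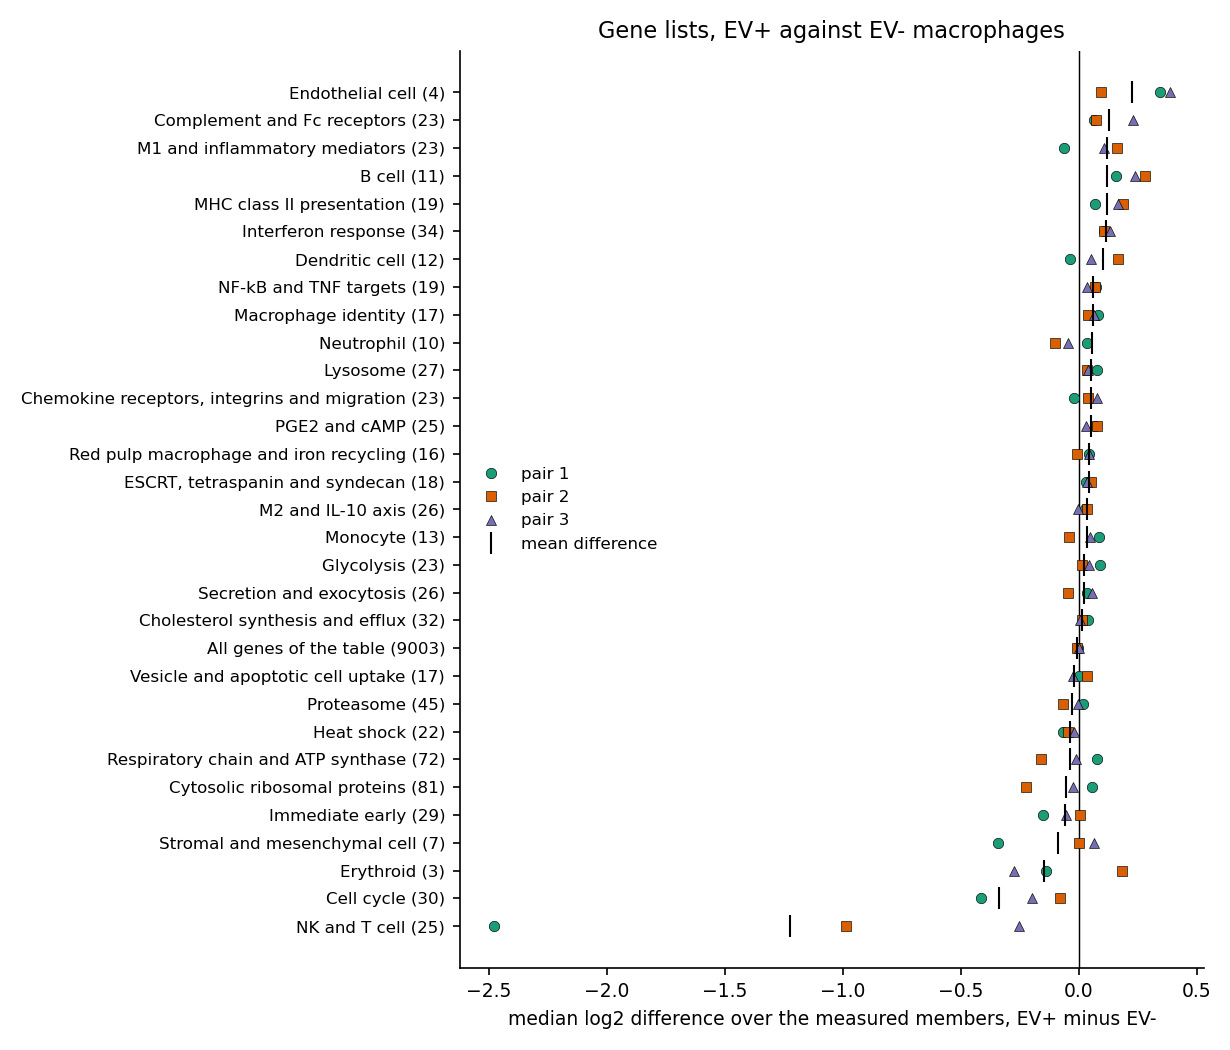
Median log2 difference, EV+ minus EV- (x axis), over the measured members of each gene list with at least 3 of them (y axis, number measured in parentheses), with 1 symbol per same-numbered pair and a black bar for the mean difference. NK and T cell genes lie far below 0 with wide pairs (-2.48 to -0.25), cell cycle genes lie at -0.34, and most other lists lie near 0.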

How the data were processed

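Splenic M2 macrophages were measured by bulk RNA-seq in 10 libraries, 3 EV+, 3 EV-, 2 GN and 2 control, grouped by the labels. Per the methods and the labels, libraries were made with SMART-Seq v4 and Nextera XT kits and sequenced as paired-end reads, and the authors aligned them with STAR (version 2.5.3) to rn6, counted them on RefSeq genes with HTSeq (version 0.6.0), removed genes under 1 CPM in all samples and applied TMM normalization in edgeR. The deposited signal is TMM-normalized CPM for 9003 genes, so genes under the filter were not tested. Of the symbols, 18 had been turned into dates and are not named. The libraries compared, the genes named and the gene lists were chosen with earlier results of these data known.

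All deposited values (100%) were whole multiples of 1 read within 0.01 of a read, so reads were recovered. The EV libraries held 19270515 to 25955835 reads, and floors of 3 reads cover counting error only. Replicates differed by 13.4 to 45.4 chi-square per degree of freedom, more than sampling noise.

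The planned test for normalized values was limma (version 3.58.1, R 4.3.3) on log2(CPM + 1), with the 4 groups, an intensity trend, 6 residual degrees of freedom and Benjamini-Hochberg adjustment over 9003 genes, with calls at an FDR under 0.1. Neither labels nor methods pair the libraries. Deviations from the group means of same-numbered EV+ and EV- libraries correlated at 0.281, 0.418 and 0.24 over 7185 genes, and those of different numbers at -0.319 to 0.018, so the number was also used as a block, in 10 libraries and in the 6 EV libraries. Over all 9003 genes these correlations were 0.203, 0.295 and 0.122 for the same numbers and -0.229 to -0.013 for different numbers. Because deviations cancel within a group, positive values for the same numbers push the others negative. The pairing thus comes from the data of the EV libraries. In 10 libraries the block also took in the GN and control libraries of the same number, for which no such correlation was computed.

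Genes named were those called in the fits of 10 libraries, the 10 largest rises and falls among genes of 5 CPM or more with p under 0.01 and groups that do not overlap, those with the largest smallest pair difference, members of the lists, and genes the study names. Further genes called in the blocked fit of the 6 libraries, class II genes and a few markers were named after their values were seen, and not all named by the rule are printed. edgeR (version 4.0.16) and DESeq2 (version 1.42.0) on recovered reads were alternatives. The unblocked fit and the blocked fit of the 6 libraries were tested on simulated counts without a pair effect, so these runs cannot test the pairing. At 1.5-fold they recovered 77.6% and 75.1% of changed, well expressed genes, with 15.3 and 15 false calls a run. Promoters came from RefSeq on GRCr8, and motifs were searched on both strands. Alignments and reads were not used here, and some genes are not reported here.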

Additional observations from a re-analysis of the deposited data

How the results depend on the processing

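*Plvap* and *Pltp* were also the 2 genes past the threshold with edgeR's quasi-likelihood test on the recovered reads, RLE size factors, a mean of at least 5 CPM, filterByExpr and an FDR under 0.05. The 6 EV libraries alone gave 2 genes too, but these were *Plvap* and *Lpl*. The count was 4 with a pseudocount of 0.1, 0 without the intensity trend (490 genes at an unadjusted p under 0.05) and 0 with limma voom (379 genes), 34 with DESeq2 (15 higher, 19 lower) and 57 with edgeR's likelihood-ratio test (18 higher, 39 lower). With the replicate block it was 5 in 10 libraries and 49 in the 6 EV libraries, of which DESeq2 shared 24. Without a block, DESeq2 called 15 genes named here that limma did not, *Cd72*, *Cd83*, *Gpnmb*, *Lpl*, *Pla2g15*, *Pla2g2d*, *RT1-Da*, *Rrm1*, *Sdc3* and *Tmem176b* as higher in EV+ and *Isyna1*, *Prf1*, *Stmn1*, *Tbx21* and *Zap70* as lower (adjusted p = 1.39e-04 to 0.0886). Apart from the calls given beside their genes, the block changed no other call of a gene named here. Leaving out 1 library gave 0 to 5 genes, 0 without EV+ replicate 1 and 5 without EV- replicate 3 (1 higher, 4 lower), and counts of genes without overlap of 663 to 914 with EV+ above and 780 to 960 with EV+ below, since fewer libraries overlap less often. With 1 library left out, differences that changed sign ranged from -0.12 to 0.10 for *Cd8a*, -0.17 to 0.21 for *Klrk1*, -1.14 to 0.17 for *Hspa1a*, -0.96 to 0.18 for *Jun*, -0.031 to 0.37 for *Mx1*, -0.20 to 0.048 for *RT1-DMa* and -0.14 to 0.057 for *RT1-DMb*. The NK and T cell median was -2.34 with a pseudocount of 0.1, where low genes weigh more. The cause of the other changes was not tested. With 3 libraries a group, differences under 0.25 were mostly not detectable. Larger ones also went uncalled at an FDR under 0.1, such as 0.88 for *RT1-Bb* (adjusted p = 0.521 by limma without the block).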
